A study of Mus musculus with 26 samples.

Results

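Lipid uptake and storage in lung group 2 innate lymphoid cells (ILC2s) was followed here through 10 genes, chosen by the symbol of their Ensembl identifier: Pparg, Dgat1, Dgat2, Cpt1a, Fabp4, Fabp5, Cd36, Plin2, Acsl4 and Hilpda. They are 10 of the 55401 gene identifiers that every library was counted against, and all 10 had a row in both experiments. RNA came from ILC2s of female wild-type mice of the strains CC030/GeniUnc, a recombinant inbred line of the Collaborative Cross, and C57BL/6J, the strain of the mouse reference genome. In the first experiment, naïve ILC2s of unchallenged lungs went from the sorter straight into lysis, with 3 CC030 and 3 C57BL/6J mice and 1 library per mouse. For the culture experiment, the cells of each of 5 CC030 mice were divided between wells with 10 µM AR420626, an agonist of the short-chain fatty acid receptor FFAR3, and with its solvent DMSO (vehicle), with libraries made after 2 and after 6 days, 20 in all. All cultures, vehicle included, also received IL-33, TSLP and IL-2. By the study's methods the mice were adults, matched for age. Naïve cells were sorted as Lineage- CD90+ CD127+ CD25+ ICOS+ and cultured cells as Lineage- CD90+ CD127+ ST2+, so the experiments differ in their gate as well as in culture.

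Fatty acids enter a cell with the help of membrane transporters, are carried through the cytosol by small binding proteins, and are activated by coupling to coenzyme A. The activated fatty acid is then either esterified to triglyceride and packed into lipid droplets, or handed to carnitine and oxidized in mitochondria. Lung ILC2s are known to take up external lipid and to store it in droplets during type 2 inflammation, and PPARγ, a nuclear receptor that binds fatty acids, is a known regulator of that program. Among the 10 genes, Pparg encodes this receptor. Cd36 encodes a fatty acid translocase, Fabp4 and Fabp5 encode cytosolic fatty acid binding proteins, and Acsl4 encodes an acyl-CoA synthetase with a preference for arachidonic acid. Dgat1 and Dgat2 encode unrelated enzymes that both catalyse the last step of triglyceride synthesis, Plin2 encodes a coat protein of lipid droplets, and Hilpda encodes a small droplet protein, induced by hypoxia, that inhibits the lipase ATGL. Cpt1a encodes the outer mitochondrial enzyme that commits long-chain fatty acids to oxidation.

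Counts assigned to genes numbered 1324595 to 1524751 per naïve CC030 library, 13533363 to 15234305 per C57BL/6J library and 227445 to 5320028 per cultured library. Both extremes of the cultured libraries are at day 2, with AR420626 mouse 4 lowest and vehicle mouse 5 highest, and that highest library had 12.29% of its uniquely aligned reads in genes, against 2.664% to 8.084% in the other 19. Levels between genes are given as TPM, counts per kb of exon scaled to the same total in each library. In naïve C57BL/6J, the 12 ILC2 markers summed to 5725.9, 6310.4 and 6220.7 TPM in replicates 1, 2 and 3, with none at 0 in every library. Their summed CPM, the count of a gene scaled to the total of its library, was 278.6 to 318.6 in naïve CC030, against 8262.2 to 10222.2 in naïve C57BL/6J. In culture that sum was 55.13 to 114.1 at day 6 with AR420626, against 68.4 to 111.1 with vehicle. The labelled cell type was therefore carried by its marker transcripts in C57BL/6J, while counts under those symbols were low in every CC030 group.

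Naïve C57BL/6J ILC2s held abundant transcripts of the droplet protein Hilpda, clear levels of the receptor Pparg, the droplet coat Plin2 and the esterifying enzyme Dgat1, and low levels of Fabp5, Cpt1a, Fabp4, Acsl4 and Dgat2, while Cd36 was high in 1 of 3 libraries. Hilpda had 686, 716 and 837 TPM in replicates 1, 2 and 3, a mean of 746 ± 79.7 TPM (SD, n = 3), and stood at percentile 98.3, 98.4 and 98.9 among genes with a count. Its lowest library was above the highest library of every other member. Pparg was at 101, 43.1 and 113 TPM, which averaged 85.7 ± 37.4 TPM (SD, n = 3), and reached percentile 91.6, 86.5 and 91.0. Plin2 was at 42.0, 56.6 and 106 TPM (68.3 ± 33.7, SD, n = 3), and Dgat1 at 37.7, 49.0 and 58.8 TPM (48.5 ± 10.6, SD, n = 3). These 4 genes were the members that reached 10 TPM in all 3 libraries. No other member reached it in both remaining libraries when any 1 library was left out.

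Of the remaining genes, Fabp5 was the steadiest, at 4.56, 7.49 and 6.42 TPM, whereas Cd36, Dgat2, Acsl4 and Fabp4 each varied between the 3 mice by more than their mean. Cd36 had 186, 0 and 4503 counts in replicates 1, 2 and 3, which is 6.10, 0 and 164 TPM. Fabp4 had 0, 38 and 157 counts, or 0, 0.931 and 4.58 TPM. The absent values are limited by depth, since 0 counts allow up to 3 counts, or 0.208 CPM for Cd36 in replicate 2 and 0.222 CPM for Fabp4 in replicate 1. Acsl4 was at 3.55, 2.08 and 16.4 TPM and Dgat2 at 4.36, 0.392 and 12.1 TPM. Cpt1a went the other way across the mice, with 9.65, 3.32 and 2.38 TPM, so that its lowest value fell in the library where Cd36, Acsl4 and Dgat2 were highest. The coefficient of variation over the 3 libraries was 10.7% for Hilpda, 21.8% for Dgat1 and 24.1% for Fabp5, compared to 132% for Fabp4 and 164% for Cd36.

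**Figure D1:**
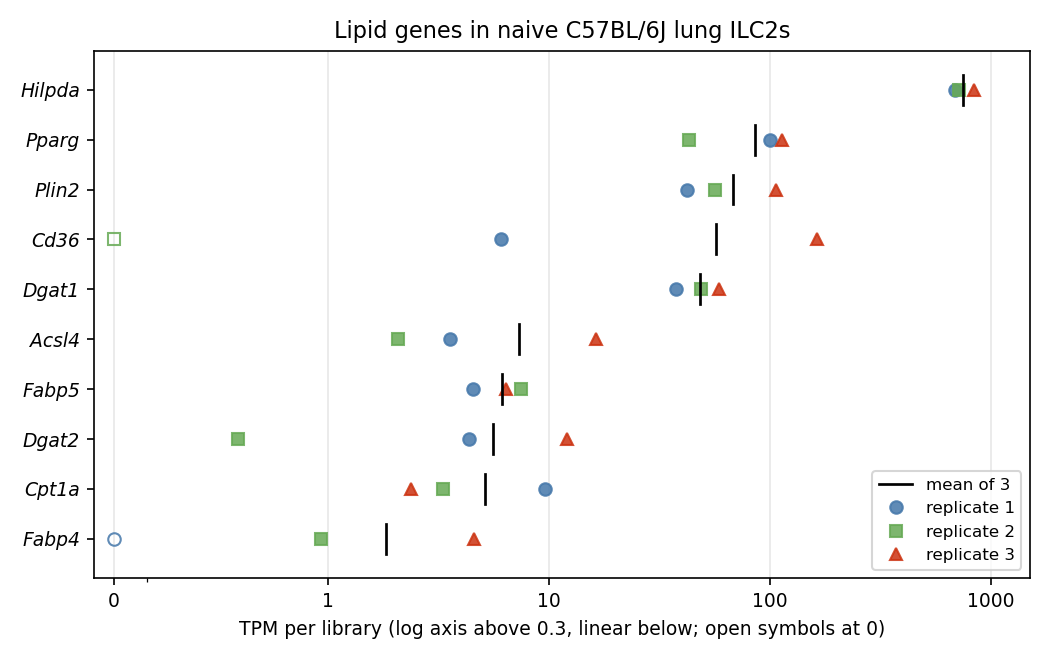
Level of each gene in the 3 naïve C57BL/6J libraries, as TPM on a log axis that is linear below 0.3, with one symbol per replicate and a bar at the mean; open symbols are at 0. Hilpda lies alone at 686 to 837 TPM, while Cd36 spans 0 to 164 TPM.

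Ordered by mean TPM, the genes ran Hilpda, Pparg, Plin2, Cd36, Dgat1, Acsl4, Fabp5, Dgat2, Cpt1a and Fabp4. Neighbours in this order were separated in all libraries at 2 places only, between Hilpda and Pparg and between Dgat1 and Acsl4, although Cd36, placed between those genes by its mean, itself overlapped both sides. All other neighbours overlapped in their ranges. The levels of the binding proteins depend on the length used, since the annotation gives Fabp4 and Fabp5 exon unions of 4489 and 3567 bp and principal transcripts of 896 and 987 bp. On the principal transcript Fabp5 averaged 16.0 ± 3.82 TPM (SD, n = 3) and passed 10 TPM in every library, and Fabp4 averaged 6.59 TPM. Fabp5 was above Fabp4 by mean on either length. Other neighbours changed places on the principal transcript, with Dgat1 (56.45 TPM) above Cd36 (42.91 TPM) by mean.

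Replicate 3 of C57BL/6J carried transcripts of other lung cells, and the members with the widest spread were highest there. Sftpc, which encodes a surfactant protein of alveolar type 2 cells, had 172153 counts in replicate 3, against 1 and 4 in replicates 1 and 2. The 6 alveolar type 2 markers summed to 22423 TPM in replicate 3 and to 0.775 and 0.995 TPM in replicates 1 and 2. The 12 alveolar macrophage markers summed to 1736 TPM, against 9.34 and 14.3. Lyz2 alone made up 1465 TPM of that sum, with 14729 counts, against 1 and 167. In replicate 3 Chil3 was at 112 TPM, Ear2 at 102 TPM, Cd68 at 27.9 TPM, Car4 at 27.1 TPM and Csf1r at 1.18 TPM. Itgax had 5 counts there, Mrc1 had 2, and Adgre1 and Krt79 had 0. Marco and Siglecf were at 0 in all 3 libraries. The 6 endothelial markers summed to 68.8 TPM, against 2.71 and 2.84, and Cldn5 had 540 counts, against 3 and 0. Adipocyte markers were absent from all 3 libraries but for a trace, with 5 of 6 (Adipoq, Lep, Cidec, Retn and Cfd) at 0 and a highest sum of 0.0237 TPM. The 6 T cell markers went the other way, at 199 TPM in replicate 3 and 353 and 362 TPM in replicates 1 and 2. Most of that sum was 1 gene, Cd3g, at 262.5, 356.1 and 195.8 TPM in replicates 1, 2 and 3. Cd3d was at 82.4, 3.45 and 1.66 TPM, Cd3e at 5.51, 2.32 and 1.12 TPM and Cd4 at 2.66, 0.0273 and 0 TPM. Cd8a and Cd8b1 were at 0 throughout.

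Relative to the higher of replicates 1 and 2, replicate 3 was 26.9 times as high for Cd36, 4.92 times for Fabp4, 4.61 times for Acsl4, 2.77 times for Dgat2 and 1.88 times for Plin2. It was 0.857 times as high for Fabp5 and 0.247 times for Cpt1a. Replicate 3 held the highest TPM of 8 of the 10 genes (80.0%), compared to 57.7% of the 15354 genes with at least 10 counts in a C57BL/6J library. Without it, the means were 3.05 TPM for Cd36, 0.466 TPM for Fabp4, 2.81 TPM for Acsl4 and 2.37 TPM for Dgat2, while Hilpda was at 701 TPM, Pparg at 71.8 TPM, Plin2 at 49.3 TPM, Dgat1 at 43.4 TPM, Cpt1a at 6.49 TPM and Fabp5 at 6.03 TPM. The part of the other cell types in these values was not tested. In bulk RNA, fewer cells that express a gene and less RNA per cell cannot be told apart.

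The promoters of Hilpda and Cpt1a are shown because Hilpda had the highest level in C57BL/6J and Cpt1a is the gene whose CC030 counts both lay at its own position and moved past the threshold with AR420626. Hilpda is on chromosome 6, at chr6:29272488-29275446 on the plus strand, and Cpt1a is on chromosome 19, at chr19:3322334-3385733 on the plus strand (GRCm38). The windows are the 250 bases before a RefSeq start on the plus strand of GRCm38.p6, chr6:29272376-29272625 for Hilpda and chr19:3323051-3323300 for Cpt1a. Capitals mark ACGTG or GCGTG, the core of the hypoxia response element, in Hilpda, and AGGTCA, the half-site of nuclear receptors such as the PPARs, in Cpt1a, where it lies on the minus strand and so reads as its reverse complement.
Hilpda: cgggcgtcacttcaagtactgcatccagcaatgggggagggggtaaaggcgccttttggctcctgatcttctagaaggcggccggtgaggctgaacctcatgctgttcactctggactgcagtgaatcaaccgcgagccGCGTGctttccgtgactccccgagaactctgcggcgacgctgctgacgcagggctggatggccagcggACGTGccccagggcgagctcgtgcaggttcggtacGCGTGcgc
Cpt1a: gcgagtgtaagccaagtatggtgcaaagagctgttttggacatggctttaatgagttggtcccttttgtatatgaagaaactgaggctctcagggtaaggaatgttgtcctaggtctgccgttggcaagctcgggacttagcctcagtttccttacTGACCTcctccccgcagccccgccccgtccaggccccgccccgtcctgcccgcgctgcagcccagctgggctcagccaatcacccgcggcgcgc
Hilpda held ACGTG at -43 and GCGTG at -111 and -8, counted back from the start, and a RefSeq start of Hilpda further upstream, with its window at chr6:29272238-29272487, held neither. Cpt1a held AGGTCA at -94. Searched on both strands of 32851 promoter windows of this length, ACGTG was present in 16.6%, GCGTG in 28.2% and AGGTCA in 14.0%. RefSeq windows were matched for 6 of the 10 genes, Acsl4, Cd36, Cpt1a, Hilpda, Plin2 and Pparg. Among these, ACGTG occurred in Hilpda, GCGTG in Acsl4, Hilpda, Plin2 and Pparg, and AGGTCA in Cd36, Cpt1a, Plin2 and Pparg. The direct repeat of AGGTCA with a single base between, the element of PPAR and RXR pairs, was in 11 of the 32851 windows and in none of these genes. Such matches describe letters, not bound sites.

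Within its family of 15 PPAR and RXR regulators and targets, Pparg held the largest mean share of the summed TPM of naïve C57BL/6J ILC2s, with 68.7%, 44.1% and 42.8% in replicates 1, 2 and 3 (51.9 ± 14.6%, SD, n = 3). The genes of the other PPARs were near absent, with Ppara at 0 counts in all libraries and Ppard at 0, 3 and 13 counts. Of the genes for their obligate partners, Rxrg had 173, 198 and 354 counts (8.87, 9.48 and 20.2 TPM), Rxrb had 101, 97 and 80 counts (2.99, 2.69 and 2.64 TPM), and Rxra had 0, 1 and 0 counts. The sterol receptor gene Nr1h3 and the PPAR target Pdk4 were also at 0 in all 3 libraries.

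Among the genes of fatty acid entry and carriage, Fabp5 was the main binding protein and Cd36 was the main uptake gene in 1 library only. Fabp5 held 100%, 89.0% and 42.0% of the summed TPM of the 10 fatty acid binding proteins in replicates 1, 2 and 3, and Fabp4 held 0%, 11.1% and 30.0%. The members Fabp1, Fabp2, Fabp3, Fabp6, Fabp7, Fabp9 and Pmp2 were at 0 in all libraries. Fabp5 exceeded Fabp4 by 8.05 times in replicate 2 and by 1.40 times in replicate 3, or by 1.01 times there on the principal transcript. Near-identical copies limit the count of Fabp5, since the pseudogenes Gm6166 and Gm14328 match it over 409 and 408 bp at 98.3% and 97.3% identity, and they held 10, 24 and 11 counts and 4, 1 and 6 counts. Cd36 held 28.3%, 0% and 80.6% of the TPM of 15 uptake genes (36.3 ± 40.9%, SD, n = 3), and 14.2% on average without replicate 3. The scavenger receptor gene Msr1 was at 0 throughout.

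Acsl4 was not the most abundant acyl-CoA synthetase transcript, and Dgat1 transcripts outnumbered those of Dgat2. Acsl4 held 0.663%, 0.404% and 4.55% of its list of 8 acyl-CoA synthetases and binding proteins in replicates 1, 2 and 3, a list led by Dbi, the acyl-CoA binding protein, at 508, 488 and 266 TPM. Dbi binds activated fatty acids but is no synthetase, and of the summed TPM without it Acsl4 held 12.9%, 8.07% and 17.5%. Acsl5, another long-chain synthetase, held 26.8%, 42.5% and 47.9%. The synthetase gene Acsbg1 was above Acsl5 in replicates 1 and 2 and below it in replicate 3. Acsbg1 was at 16.47, 11.47 and 28.15 TPM, against 7.41, 10.92 and 44.76 TPM for Acsl5. Among 20 genes of triglyceride and sterol ester synthesis, Dgat1 held 24.6%, 46.6% and 23.3% and Dgat2 held 2.85%, 0.373% and 4.78%. Dgat1 exceeded Dgat2 in every library, by 8.65, 125 and 4.88 times in replicates 1, 2 and 3. The widest of these ratios rests on 11 counts of Dgat2 in replicate 2, set against 1363 counts of Dgat1.

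Hilpda dominated the 12 lipid droplet proteins, with 91.5%, 90.2% and 82.9% of their summed TPM (88.2 ± 4.62%, SD, n = 3), and Plin2 held 5.60%, 7.13% and 10.5%. The Hilpda level was 16.3, 12.7 and 7.87 times that of Plin2. The droplet genes Cidea and Cidec, known from fat cells, were at 0 in all libraries, as was Fitm1. Plin2 has 1 near-identical copy, Gm12551, with 0 counts in each library. Of the lipolysis genes, the monoacylglycerol hydrolase gene Abhd6 had the largest mean share, at 41.4, 15.2 and 18.2 TPM, although Pnpla2, which encodes ATGL, was above it in replicate 3, with 0.975, 2.51 and 44.3 TPM.

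Cpt1a made up a small share of 20 fatty acid oxidation genes, 1.46%, 0.467% and 0.169% in replicates 1, 2 and 3. By mean share that list was led by Acaa2, the last enzyme of the mitochondrial cycle, at 87.1, 210 and 379 TPM, although in replicate 1 the electron transfer flavoprotein gene Etfa (200 TPM) and the isomerase gene Eci1 (119 TPM) were above it, and the muscle form Cpt1b was at 0 throughout. Of 15 fatty acid synthesis genes, the elongase Elovl5 led with 129, 96.4 and 143 TPM, and Elovl1 was at 35.0, 11.5 and 191 TPM. Acacb, Elovl6, Fads2 and Mlxipl were at 0 in all C57BL/6J libraries.

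Because CC030 reads were aligned to a pseudogenome of mm9 and then converted to mm10 coordinates, each gene was checked for whether the CC030 counts under its symbol lay at its own position. Around each gene, log2 counts per exonic kb of CC030 were correlated across genes with the C57BL/6J exon profile, moved in steps of 1 kb by up to 3 Mb, in a window of 4 Mb to each side. Genes are not independent replicates, so the correlations describe the counts. At day 6 of culture, 3 of the 10 genes matched without a shift in both treatments. For Cpt1a the correlation peaked at no shift, with r = 0.720 with AR420626 and 0.738 with vehicle over 277 genes, and reached at most 0.350 and 0.340 elsewhere. For Fabp5, r was 0.715 with AR420626 and 0.811 with vehicle at no shift over 91 genes, with 0.666 and 0.690 elsewhere. Fabp4 shares almost all of that window, since it lies on the same chromosome (chr3:10204088-10208576, minus strand) as Fabp5 (chr3:10012548-10016607, plus strand), and its values were 0.712 and 0.811.

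The other 7 genes did not match at their own position, and for 4 of them both treatments gave a like shift elsewhere. Around Dgat1 the correlation peaked at a shift of 170 kb in both treatments, with r = 0.626 with AR420626 and 0.706 with vehicle, compared to 0.077 and 0.025 at no shift. Around Cd36 it peaked at 494 kb, with r = 0.731 and 0.841, compared to 0.163 and 0.253. Around Pparg the best shift was 56 kb with AR420626 and 50 kb with vehicle, with r = 0.465 and 0.527, against 0.133 and 0.144 at no shift. For Dgat2 it was 1885 kb in both, with r under 0.5, and for Plin2, Acsl4 and Hilpda the treatments gave different shifts, so that no place was found for them. Day 2 libraries matched less well, and Cpt1a alone kept its best r at no shift, 0.573 with AR420626 and 0.555 with vehicle. Around Fabp4 and Fabp5 the best shift at day 2 was 4 kb with vehicle but -1348 kb with AR420626. In naïve CC030 libraries no gene matched at its own position, with a best r of 0.351 or less and r at no shift of 0.113 or less. For these reasons CC030 counts are described below as counts under a symbol, and as Cpt1a, Fabp4 and Fabp5 only at day 6, and for Cpt1a at day 2.

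**Figure D2:**
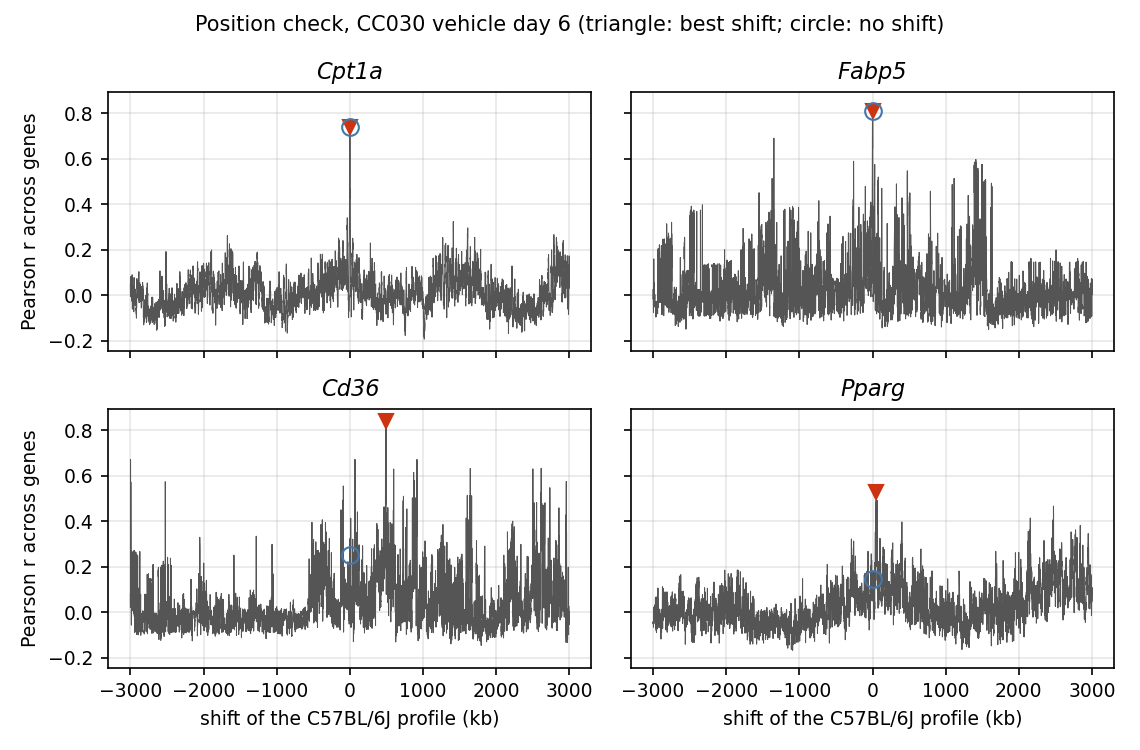
Correlation across genes between CC030 vehicle libraries at day 6 and the C57BL/6J exon profile (Pearson r, vertical axis) against the shift of the profile in kb, for Cpt1a, Fabp5, Cd36 and Pparg; the triangle marks the best shift and the circle no shift. The marks coincide for Cpt1a (r = 0.738) and Fabp5 (r = 0.811), whereas the peak of Cd36 lies at 494 kb and that of Pparg at 50 kb.

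Counts under the 10 symbols were set side by side between the naïve strains to show what a strain comparison holds for them, with the limit that naïve CC030 counts matched no member's position. A negative log2 fold change is lower in CC030, and each comes from the quasi-likelihood test of edgeR with Benjamini-Hochberg adjusted p over 35551 genes, called below 0.05. Of all genes tested 64.1% were called higher in CC030 and 12.2% lower, with a median log2 fold change of 7.03. Naïve CC030 libraries had 43527 to 46111 genes with a count, against 15946 to 16553 in C57BL/6J, despite their lower total counts. The part of this spread of counts in the folds was not tested. All 10 members passed the filter on low counts, 0 were called higher and 4 lower, and their median was -1.47. Hilpda had 5, 8 and 18 counts in CC030, against 6424, 7185 and 7049 in C57BL/6J, or 6.97 ± 4.26 CPM against 479 ± 18.1 CPM (SD, n = 3 each), a log2 fold change of -7.29 (SE 0.585, adjusted p = 0.000453 from edgeR). Pparg had 29, 20 and 45 counts in CC030, against 2522, 1157 and 2556 in C57BL/6J (log2 fold change -3.93, SE 0.515, adjusted p = 0.00046). The strains did not overlap for either symbol.

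Plin2 was at 25.9 ± 9.04 CPM in CC030 and 135 ± 48.0 CPM in C57BL/6J (SD, n = 3 each), a log2 fold change of -3.55 (SE 0.446, adjusted p = 0.00046 from edgeR). Dgat1 was at 38.9 ± 3.06 CPM in CC030 and 85.6 ± 11.8 CPM in C57BL/6J (SD, n = 3 each), a log2 fold change of -2.33 (SE 0.367, adjusted p = 0.000626 from edgeR). The other 6 symbols were not called. Cpt1a had 187, 191 and 199 counts in CC030, against 626, 231 and 139 in C57BL/6J, which is 133 ± 7.26 CPM against 23.8 ± 19.7 CPM (SD, n = 3 each). Its log2 fold change was 1.22 (adjusted p = 0.125 from edgeR), or 1.89 (adjusted p = 0.0262) without C57BL/6J replicate 1 and 0.42 (adjusted p = 0.434) without C57BL/6J replicate 3. Cd36 was at 14.6 ± 6.34 CPM in CC030 and 103 ± 167 CPM in C57BL/6J (SD, n = 3 each), with a log2 fold change of -3.82 (adjusted p = 0.118 from edgeR). It was -4.36 (adjusted p = 0.00755) without C57BL/6J replicate 2, which had 0 counts, and -0.55 (adjusted p = 0.757) without replicate 3.

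**Figure D3:**
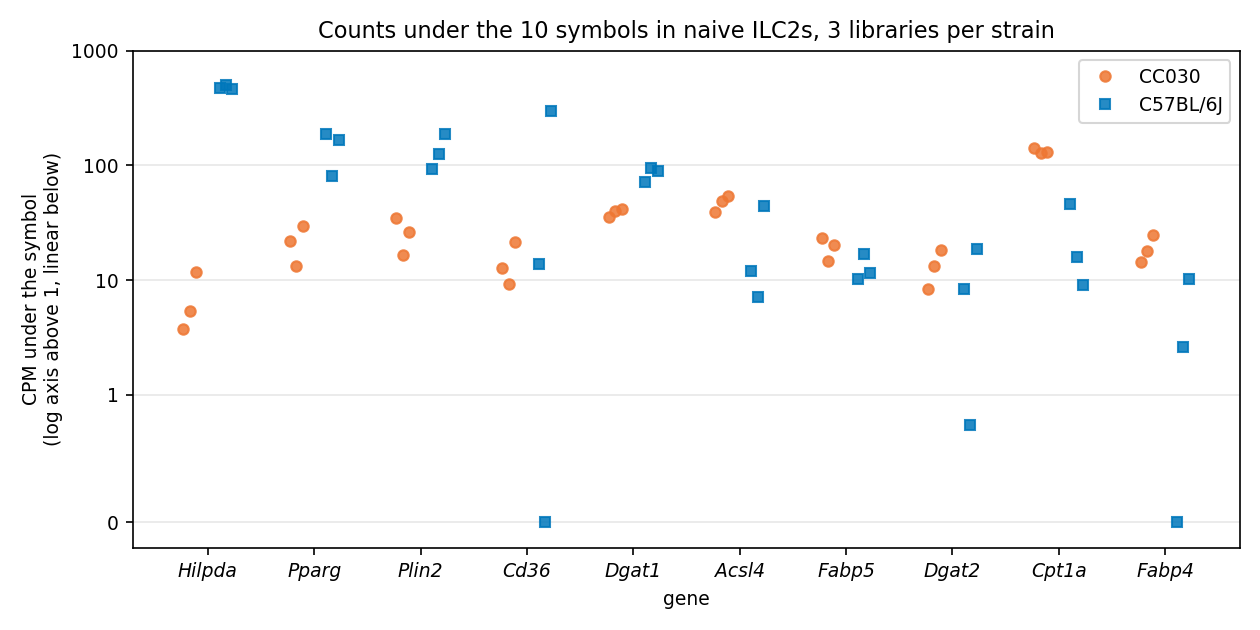
CPM under each symbol in naïve ILC2s, on a log axis that is linear below 1, with the 3 CC030 libraries (circles) left of the 3 C57BL/6J libraries (squares). Hilpda, Pparg, Plin2 and Dgat1 are lower in all CC030 libraries, and Cpt1a and Fabp4 are higher in all CC030 libraries on this scale.

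The scaling of the libraries weighed on these folds. TMM factors, the scaling of edgeR for library composition, differed between the strains by 1.24 on the log2 scale, so that folds on library size alone lie higher by about that amount. On library size alone the folds were -6.04 for Hilpda, -2.70 for Pparg, -2.34 for Plin2 and -1.09 for Dgat1, all still past the threshold, and Cpt1a was called higher (2.53, adjusted p = 0.00709 from edgeR). Fabp5 was at 19.5 ± 4.43 CPM in CC030 and 12.9 ± 3.53 CPM in C57BL/6J (SD, n = 3 each), and its log2 fold change was -0.62 with TMM but 0.65 on library size. Dgat2 likewise turned, at -0.57 with TMM and 0.57 on library size, and neither was called. Fabp4 (19.1 ± 5.37 CPM in CC030, 4.31 ± 5.35 CPM in C57BL/6J) and Acsl4 (47.2 ± 7.37 CPM in CC030, 21.2 ± 20.2 CPM in C57BL/6J, SD, n = 3 each) had log2 fold changes of 1.09 and 0.07 with TMM, not called. The exact two-sided permutation test of 3 mice against 3 has a smallest p of 0.10, which was reached by Hilpda, Pparg, Plin2, Dgat1, Cpt1a and Fabp4.

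In the cytokine cultures, Cpt1a was lower with AR420626 than with vehicle at day 6, in all 5 mice. On TMM-scaled CPM, the Cpt1a level was 183, 166, 232, 139 and 212 with AR420626 in mice 1 to 5, against 426, 302, 312, 1040 and 409 with vehicle. The treatments did not overlap, and vehicle mouse 4, which had a TMM factor of 0.301, stood far above the other vehicle libraries on this scale. On library size alone Cpt1a was at 93.6 to 177 CPM with AR420626, against 218 to 313 CPM with vehicle, again without overlap. Means were 187 ± 36.6 CPM with AR420626 and 498 ± 308 CPM with vehicle (SD, n = 5 each). The log2 fold change was -0.96 (SE 0.247, adjusted p = 0.00916 from edgeR with mouse as a block). TMM-scaled CPM of cultured libraries used factors fitted over all of them, whereas each TMM fold used factors refitted on the libraries of its comparison. On the CPM scale the Cpt1a difference was therefore wider, at -1.27 in mean log2(CPM + 1). The signs of 5 paired differences gave an exact two-sided p of 0.063, the smallest that 5 mice allow. This call was lost without mouse 1 (log2 fold change -0.92, adjusted p = 0.0783), without mouse 4 (-0.67, adjusted p = 0.0800) and without mice 4 and 5 (-0.70, adjusted p = 0.227 from edgeR).

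Of 9421 genes tested at day 6, 3.30% were higher and 8.14% lower with AR420626, and 3 of the 10 genes passed the filter on low counts, of which 0 were higher and 1, Cpt1a, lower. TMM factors of the treatments, fitted for this test on the libraries of this comparison, differed by 0.18 on the log2 scale. On library size alone 468 genes were called higher and 543 lower, compared to 311 and 767 with TMM. Cpt1a remained lower on that scale (log2 fold change -0.77, adjusted p = 0.0170 from edgeR). Neighbouring genes moved the same way, since of 134 tested genes within 4 Mb of Cpt1a 3 were higher and 27 lower, with a median log2 fold change of -0.29, compared to 0.10 over all genes tested. The percentage of uniquely aligned reads in genes was 6.229, 5.277, 6.151, 6.144 and 5.872 with AR420626 in mice 1 to 5. With vehicle it was 6.847, 6.098, 5.913, 8.084 and 6.332, so that it was lower with AR420626 in all mice but mouse 3. The part of the region or of this percentage in the change of Cpt1a was not tested.

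Fabp5 was below its vehicle culture at day 6 in all 5 mice without passing the test, at 531, 228, 571, 469 and 383 CPM with AR420626, against 710, 497, 591, 1352 and 897 CPM with vehicle in mice 1 to 5. The ranges overlapped, and means were 436 ± 136 CPM with AR420626 and 809 ± 338 CPM with vehicle (SD, n = 5 each). The log2 fold change of -0.56 (SE 0.232) did not pass the threshold (adjusted p = 0.116 from edgeR), and it did with DESeq2 (-0.74, adjusted p = 0.0140). Around Fabp5, 0 of 16 tested neighbours were higher and 4 lower, with a median of -0.58. Fabp4 was barely counted, with 4, 17, 2, 5 and 2 counts with AR420626 and 12, 2, 6, 6 and 0 counts with vehicle, too few to pass the filter (exact two-sided p = 0.5625 for the paired signs). Counts under Pparg, which lie off its position, averaged 307 ± 79.6 CPM with AR420626 and 453 ± 383 CPM with vehicle (SD, n = 5 each), with a log2 fold change of 0.02 (adjusted p = 0.969 from edgeR).

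**Figure D4:**
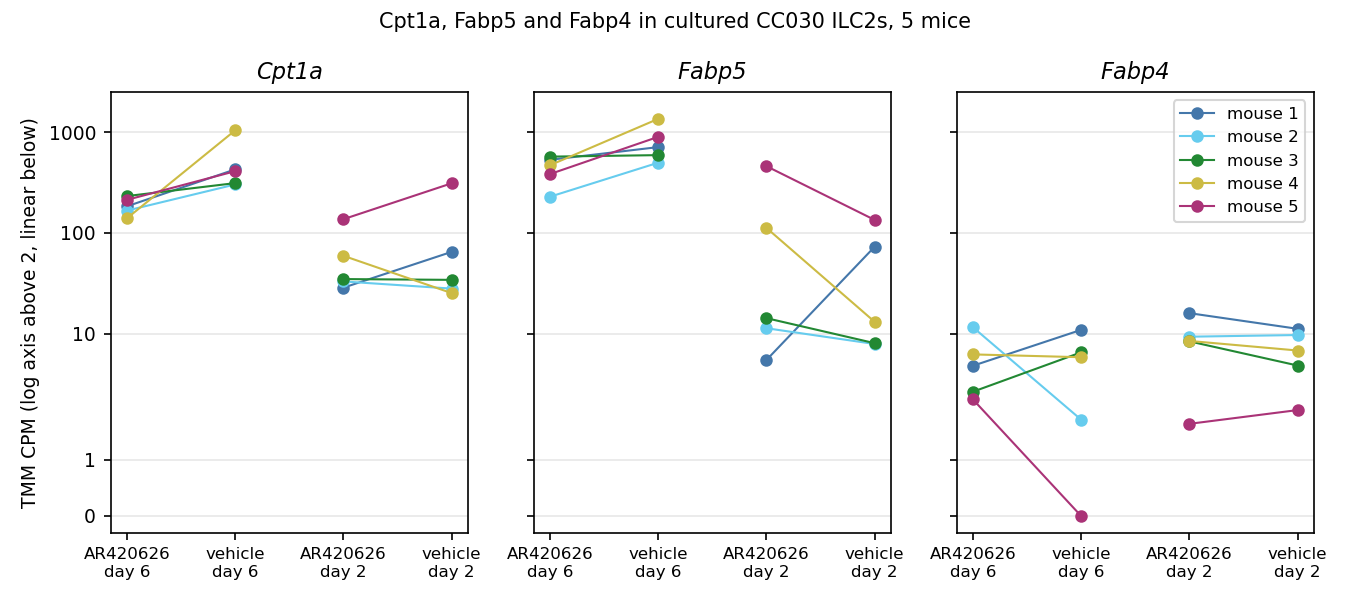
TMM-scaled CPM of Cpt1a, Fabp5 and Fabp4 in cultured CC030 ILC2s, on a log axis that is linear below 2, with lines joining the AR420626 and vehicle cultures of each of the 5 mice at day 6 and at day 2. At day 6 each line of Cpt1a and Fabp5 is lower with AR420626, whereas at day 2 the lines run both ways.

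At day 2 no member passed the test between treatments. Cpt1a was at 28.6, 32.9, 34.8, 59.2 and 137 CPM with AR420626 in mice 1 to 5, against 64.7, 28.0, 34.2, 25.2 and 310 CPM with vehicle, with mouse 5 highest in both. On library size alone vehicle mouse 5, which had a TMM factor of 0.199, was at 61.7 CPM, below mouse 1 (121 CPM) and mouse 3 (74.6 CPM). Its log2 fold change was -0.22 (SE 0.617, adjusted p = 1 from edgeR), or 0.88 on library size alone, since TMM factors of the treatments differed by 1.08 at this day. Counts under Fabp5 were 13, 34, 34, 53 and 558 with AR420626, against 163, 22, 20, 27 and 142 with vehicle, and its log2 fold change was 0.72 (SE 0.909, adjusted p = 1). Of 20865 genes tested, 8 of them members, 0 (0%) were called in either direction by edgeR, although 403 had an unadjusted p below 0.05 and DESeq2 called 31, none a member. AR420626 libraries of this day held 227445 to 1171015 counts and vehicle libraries 1139210 to 5320028. The common dispersion, the spread between libraries in edgeR, was 0.135 at day 6 and 0.343 at day 2. The part of depth or spread in the absence of calls was not tested.

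The treatment effect on Cpt1a was not shown to differ between the days. Tested directly over 20 libraries, the effect at day 6 minus that at day 2 was -0.98 on the log2 scale for Cpt1a (SE 0.971, adjusted p = 0.994 from edgeR) and -1.68 for Fabp5 (SE 1.24, adjusted p = 0.994). Of 23141 genes tested, 0.0389% were called higher and 0.0130% lower, and none of the 8 members tested was among them.

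Between the days, Cpt1a and Fabp5 were higher at day 6 than at day 2 in vehicle cultures of all 5 mice. Fabp5 averaged 809 ± 338 CPM at day 6 and 47.2 ± 55.9 CPM at day 2 (SD, n = 5 each), a log2 fold change of 4.92 (SE 1.09, adjusted p = 0.00534 from edgeR), and its days did not overlap. Its call passed under all 13 alternatives. Around Fabp5 at day 2 with vehicle the best shift was 4 kb (r = 0.522). At no shift r was 0.365, and elsewhere it reached 0.497, so these counts are placed less firmly than those of day 6. Cpt1a averaged 498 ± 308 CPM at day 6 and 92.5 ± 123 CPM at day 2 (SD, n = 5 each), a log2 fold change of 2.96 (SE 0.959, adjusted p = 0.0402 from edgeR). That call passed in 6 of 13 alternatives. It was lost without mouse 1, 2, 3 or 4 (log2 fold change 2.43 to 3.01, adjusted p = 0.146 to 0.160), with size factors of DESeq2 (2.88, adjusted p = 0.0535), with no filter on low counts (3.02, adjusted p = 0.0860) and without the mouse block (2.42, adjusted p = 0.0912). Without mouse 5, whose day 2 library stood high after TMM scaling, the fold was 3.70 (adjusted p = 2.82e-05). Of 15819 genes tested, 13.6% were higher and 3.73% lower at day 6. Of the 10 genes, 7 were tested, 3 were higher and 1 lower. On library size alone 1275 genes were higher and 745 lower, compared to 2152 and 590 with TMM, and the TMM factors differed by 1.00 on the log2 scale, lower at day 6. The folds were then 3.97 for Fabp5 and 1.94 for Cpt1a, both past the threshold. Within 4 Mb of Cpt1a 71 of 162 tested neighbours were also higher and 3 lower, and around Fabp5 10 of 20 were higher and 0 lower. The libraries of the days also differed. At day 2 vehicle mice 1 to 4 had 42723 to 44880 genes with a count, against 28113 to 33117 at day 6 in all 5 mice. Their uniquely aligned reads in genes were 3.442% to 5.226%, against 5.913% to 8.084%. Vehicle mouse 5 at day 2 had 32347 genes and 12.29%, and that day's highest vehicle level of Cpt1a and Fabp5 after TMM scaling. The part of this difference in the folds was not tested.

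In AR420626 cultures the same genes were higher at day 6 in most mice without passing the threshold. Cpt1a averaged 187 ± 36.6 CPM at day 6 and 58.4 ± 45.3 CPM at day 2 (SD, n = 5 each), higher in 5 of 5 mice, with a log2 fold change of 1.57 (SE 0.576, adjusted p = 0.0915 from edgeR). Fabp5 averaged 436 ± 136 CPM at day 6 and 120 ± 194 CPM at day 2 (SD, n = 5 each), higher in 4 of 5 mice, with a log2 fold change of 3.36 (SE 1.15, adjusted p = 0.0711). At day 2 with AR420626 the best shift around Fabp5 was -1348 kb (r = 0.554, against 0.507 at no shift). Its day 2 values here are therefore counts under the symbol. Mouse 5 held the highest day 2 level of both genes. Without mouse 5 both passed, at 2.04 for Cpt1a (adjusted p = 0.00486) and 4.36 for Fabp5 (adjusted p = 0.000898 from edgeR). Of 14731 genes tested, 10.0% were higher and 1.14% lower, and of 6 members tested 1 was higher, Pparg by symbol, and 0 were lower. Here the scaling decided much, since TMM factors differed by 1.35 on the log2 scale, lower at day 6, and on library size alone 750 genes were higher and 5402 lower, compared to 1479 and 168 with TMM. On library size alone the log2 fold change was 0.23 for Cpt1a and 1.93 for Fabp5, neither past the threshold. Within 4 Mb of Cpt1a 53 of 148 tested neighbours were higher and 2 lower, and around Fabp5 3 of 19 were higher and 0 lower. AR420626 libraries had 2.664% to 4.802% of uniquely aligned reads in genes at day 2, against 5.277% to 6.229% at day 6. The part of this difference in the folds was likewise not tested.

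The other members gave counts under their symbols in culture that cannot be read as those genes. Counts under Pparg were higher at day 6 than at day 2 in all 5 mice under both treatments, with log2 fold changes of 4.06 (SE 0.752, adjusted p = 0.00574 from edgeR) with AR420626 and 3.69 (SE 0.887, adjusted p = 0.00852) with vehicle. Counts under Dgat1 were lower at day 6 with vehicle, at 7.09 ± 1.99 CPM, against 34.6 ± 19.9 CPM at day 2 (SD, n = 5 each), a log2 fold change of -2.17 (SE 0.543, adjusted p = 0.0109 from edgeR) that was lost without mouse 4 (-1.80, adjusted p = 0.0708). Hilpda, the most abundant member in C57BL/6J, had 0 to 11 counts in each of the 20 cultured libraries. Counts under Cd36, Plin2, Acsl4 and Dgat2 lay between 0 and 90 in each.

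The other genes of the pathways were counted from 9 lists that hold 124 genes, 7 of which matched their own positions at day 6 (Cpt1a, Fabp4, Fabp5, Fabp9, Fabp12, Pmp2 and Mogat1). At day 6 with AR420626 against vehicle, 54 of them were tested, 2 were higher (3.70%) and 6 lower (11.1%), compared to 3.30% and 8.14% of all genes, and their median log2 fold change was 0.08, compared to 0.10 over all genes tested. The higher ones were Lpin2 (1.25), a phosphatidate phosphatase gene of triglyceride synthesis, and Fasn (1.28), fatty acid synthase. Among the lower ones were Cidea (-1.33), a droplet fusion protein, and Lpcat3 (-1.92), a phospholipid acyltransferase. Of these 8 genes Cpt1a alone lay at its own position, so the other 7 are counts under a symbol. At day 2 103 were tested and 0 were called. Between the days 82 were tested with AR420626, of which 8 were higher (9.76%) and 0 lower, compared to 10.0% and 1.14% of all genes. With vehicle 85 were tested, of which 15 were higher (17.6%) and 4 lower (4.71%), compared to 13.6% and 3.73% of all genes. Between the naïve strains 116 were tested, and 42 were higher (36.2%) and 24 lower (20.7%) in CC030, with a median of 1.23, compared to 64.1%, 12.2% and 7.03 over all genes.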

How the data were processed

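The authors trimmed reads with fastp, aligned those of C57BL/6J with STAR to mm10 and those of CC030 to a pseudogenome of mm9, moved CC030 alignments to mm10 coordinates with lapels, and deposited raw HTSeq counts per gene, from an annotation version not given in the sources used here. Of 55401 identifiers, 55141 were matched to GENCODE vM21 (GRCm38). The 5 HTSeq summary rows were left out of tests.

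Genes kept by filterByExpr (minimum count 10, minimum total 15) were scaled by TMM and tested with edgeR 4.0.16 in R 4.3.3, with p adjusted over all genes at 0.05. Mouse was a block in culture, where cells of each animal were split. Deviations of the same mouse correlated at -0.129 to 0.347 between treatments at day 2 and at -0.101 to 0.303 at day 6. Exact permutation tests used log2(CPM + 1). TPM used exon unions, with the principal transcript as an alternative. Copies were sought with BLAST+ 2.17.0 (at least 95% identity over 150 bp). A gene was at its own position where its best shift was 5 kb or less, in culture in both treatments of a day. Promoters are RefSeq's (GRCm38.p6). The tests were checked on simulated counts. Alternatives were DESeq2 1.42.0, other scalings and filters, the block, and leaving out each replicate. Library size alone, protein-coding genes alone, leaving out mice 4 and 5, the principal transcript, and the synthetase share without Dbi were chosen later, with the data in view. Limits from counts cover counting error only.

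Named genes are the 10 members, the leading gene of each list in C57BL/6J with any above 25% of its list, and up to 2 called genes in each direction. Rxrg, Rxrb, Rxra, Acsl5, Acsbg1, Etfa, Eci1 and Pnpla2 were named after their values were seen, as were single macrophage and T cell markers. Members and lists were chosen with earlier results of these data known.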

Additional observations from a re-analysis of the deposited data

Results flagged for a closer look

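In each group of 5 cultured libraries, the highest or lowest library was compared with the others by Dixon's test on TMM-scaled CPM. Of 40 groups, 4 treatments and days for each of 10 genes, 10 had a library past the 95% critical value of 0.71. Chance alone flags about 1 in 20 only for independent, normally distributed values. These groups share the same libraries and some rest on counts near 0, so their number cannot be set against that rate. Mouse 5 stood high at day 2, with Pparg at 55.96 CPM, Cpt1a at 136.6 CPM and Fabp5 at 459.2 CPM with AR420626, and Cpt1a at 310.3 CPM with vehicle. Mouse 4 stood apart at day 6 with vehicle, with Pparg at 1118.9 CPM, Cpt1a at 1040.2 CPM and Plin2 at 0 CPM. Mouse 2 stood high for Cd36, at 21.8 CPM at day 6 with AR420626 and 23.3 CPM at day 2 with vehicle. Hilpda in mouse 3 at day 6 with AR420626 was at 13.24 CPM, from 10 counts. These values depend on the scaling, since TMM factors were 0.199 for vehicle mouse 5 at day 2 and 0.301 for vehicle mouse 4 at day 6. On library size alone, 3 of the 10 were past the critical value, Pparg in mouse 5 at day 2 (66.6 CPM), Cd36 in mouse 2 (22.5 CPM) and Hilpda in mouse 3 (9.04 CPM) at day 6, all with AR420626. Groups not flagged with TMM were also past it on that scale. They were Fabp5 (136 CPM) and Pparg (98.8 CPM) in vehicle mouse 1 at day 2, and Fabp4 in AR420626 mouse 2 at day 6, from 17 counts. Of these symbols, Cpt1a lay at its own position in both treatments at both days, and Fabp4 and Fabp5 in both treatments at day 6 only.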

How the results depend on the processing

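The number of members called was 4 between the naïve strains and 4 to 5 under each alternative. The 4 genes called there, Pparg, Dgat1, Plin2 and Hilpda, passed under every alternative in which they were tested, Hilpda being left out by the filter of at least 10 counts in every library. Folds that turned in sign between the strains were not called in any setting. Dgat2 was at 0.081 with DESeq2, 0.11 with its size factors, 0.57 on library size and 0.28 with at least 10 counts in every library (log2). Fabp5 was at 0.65 on library size and 0.20 with at least 10 counts. Acsl4 was at -0.025 with no filter and between -0.36 and 0.618 when a library was left out, below 0 without CC030 replicate 3 (-0.04), C57BL/6J replicate 1 (-0.19) or C57BL/6J replicate 2 (-0.36). Cpt1a passed in 5 of 12 alternatives, at 1.62 to 2.53 where it passed and 0.42 to 2.53 over all 12.

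With AR420626 against vehicle at day 6, 1 member was called, 2 with DESeq2, 0 without mice 4 and 5, and 0 to 1 when a mouse was left out. Cpt1a passed in 10 of 13 alternatives, with adjusted p of 0.00188 to 0.227. Vehicle cultures at day 6 against day 2 gave 4 members, or 2 to 4 when a mouse was left out. AR420626 cultures gave 1, but 3 with DESeq2, 2 on library size, 2 with no filter, 4 without mice 4 and 5, and 1 to 3 when a mouse was left out. Why these counts moved was not tested.

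Replicate numbers of the strains name different mice, and their deviations correlated at -0.011 to 0.002. With the number as a block, 5 members were called and Cpt1a passed (1.62, adjusted p = 0.0325 from edgeR). In culture, removing the mouse block cost Cpt1a its call between the days with vehicle (2.42, adjusted p = 0.0912) and left it at day 6 with AR420626 (-0.99, adjusted p = 0.00880). In C57BL/6J, 4 members reached 10 TPM in every library, and 5 with the principal transcript or as CPM. The position check gave the same 3 members with windows of 8 Mb and with Spearman's correlation. The shifts of the other members were less firm. At day 6 windows of 8 Mb gave 494 kb for Cd36 and 50 kb for Pparg in both treatments. With Spearman's correlation Dgat1 kept 170 kb in both. Cd36 was then at 335 kb with AR420626 and 440 kb with vehicle, Dgat2 at 811 and 2093 kb, and Pparg at 50 and 102 kb. Low counts limit Fabp4 and Hilpda in CC030, where no library of either passed 38 counts.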
